A study of Mus musculus with 16 samples.

Results

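The 89 genes described here encode the proteins of the cytosolic ribosome and a few close copies, measured in mouse kidney after cisplatin. They were chosen by symbol: names starting Rpl or Rps followed by a digit, plus Rpsa, Rplp0, Rplp1 and Rplp2. Of 362 such symbols, 11 kinases and 259 pseudogenes were dropped, which left 92 genes of the 46078 in the table. Of these, 89 had at least 1 TPM in at least 4 of the 16 libraries and entered the test beside 15014 genes in all. TPM is the number of reads of a gene divided by its exon length and scaled to 1000000 per library. The 3 genes below that level were Rpl3l, which reached 1 TPM in 2 libraries with a highest value of 1.11 TPM, Rpl39l, with a highest value of 0.0306 TPM, and Rpl10l, listed at 0. The lowest genes above it were Rpl22l1, with a mean of 6.50 TPM over all libraries, and Rps12l1, with 8.18 TPM. The rule took 51 genes named Rpl and 38 named Rps. In GENCODE M21, 83 of the 89 are protein-coding and 6 are typed as processed pseudogenes (Rpl6l, Rpl37rt, Rps3a2, Rps3a3, Rps4l and Rps12l1). Rps19bp1, a nucleolar protein that binds Rps19, was taken by its symbol and is no subunit of the ribosome.

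Cytosolic ribosomes are built in the nucleolus from ribosomal RNA and ribosomal proteins, which the cell needs in about equal numbers. The mRNAs of these proteins start with a run of pyrimidines, the terminal oligopyrimidine or TOP tract, through which mTOR and LARP1 control their translation together. When ribosome assembly is disturbed, free Rpl5 and Rpl11 bind MDM2 and stabilise p53, which links ribosome production to the response to DNA damage.

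All kidneys came from C57BL/6 mice aged 20 weeks and were taken 72 h after an intraperitoneal injection, following perfusion. BL_vehicle mice had no preconditioning and received sodium chloride at 0.9%, and BL_cisplatin mice had none and received cisplatin. CR_cisplatin mice received cisplatin after 4 weeks of calorie restriction. HP_cisplatin mice received it after hypoxia of 2, 4 and 8 h on 3 consecutive days, ending at least 1 h before the injection. Each group has 4 libraries of total RNA depleted of ribosomal RNA, and no group combined a preconditioning with saline. Whether 2 libraries of a group came from 2 mice is not stated in the labels, so the p-values reflect only how these samples vary, which may be technical. In whole tissue, fewer cells of a type and less RNA per cell cannot be told apart.

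Reads recovered from the TPM values came to between 49180903 and 62604521 per library, of which the 89 genes took 0.717 to 1.60%. Marker genes of the proximal tubule, the segment that takes up cisplatin, summed to 3076 to 3763 TPM in BL_vehicle and to 149 to 245 TPM in BL_cisplatin. Tubule injury and p53 genes (Havcr1, Lcn2, Krt20, Cdkn1a and Mdm2) summed to 11.02 to 14.3 TPM in BL_vehicle, 1263 to 1364 TPM in BL_cisplatin and 13.3 to 25.7 TPM in CR_cisplatin. The HP_cisplatin libraries differed widely: their injury sums were 1526, 253, 891 and 17.1 TPM in libraries 1 to 4. Library 4 of HP_cisplatin differed less from library 4 of CR_cisplatin than any other 2 libraries differed. The median squared difference of their read counts was 1.81 times that expected from counting alone, against 3.33 times for the next closest pair. The main results on hypoxia are therefore given with and without it. Library titles start with 1 of 2 codes: the first covers BL_cisplatin and library 1 of CR_cisplatin, and the second covers all others.

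Cisplatin without preconditioning was accompanied by a higher level of nearly all ribosomal protein mRNAs. The 89 genes together made up 8734, 8952, 9099 and 8365 TPM in the BL_vehicle libraries and 15114, 14739, 14752 and 14644 TPM in the BL_cisplatin libraries. The groups did not overlap, with means of 8787 ± 319 and 14812 ± 207 TPM (SD, n = 4 each). In CR_cisplatin the sum was 9155, 9433, 9674 and 9086 TPM, each above the vehicle mean but overlapping the vehicle libraries. In HP_cisplatin it was 16590, 13065, 14021 and 8944 TPM, so that library 1 stood above all BL_cisplatin libraries and library 4 lay within the vehicle range. As a share of the TPM of all nuclear protein-coding genes, which removes mitochondrial and noncoding RNA from the denominator, the genes rose from 3.25 to 3.57% in BL_vehicle to 6.45 to 7.18% in BL_cisplatin. That share was 3.52 to 3.72% in CR_cisplatin. It was 7.38, 5.20, 5.60 and 3.504% in libraries 1 to 4 of HP_cisplatin.

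**Figure D1:**
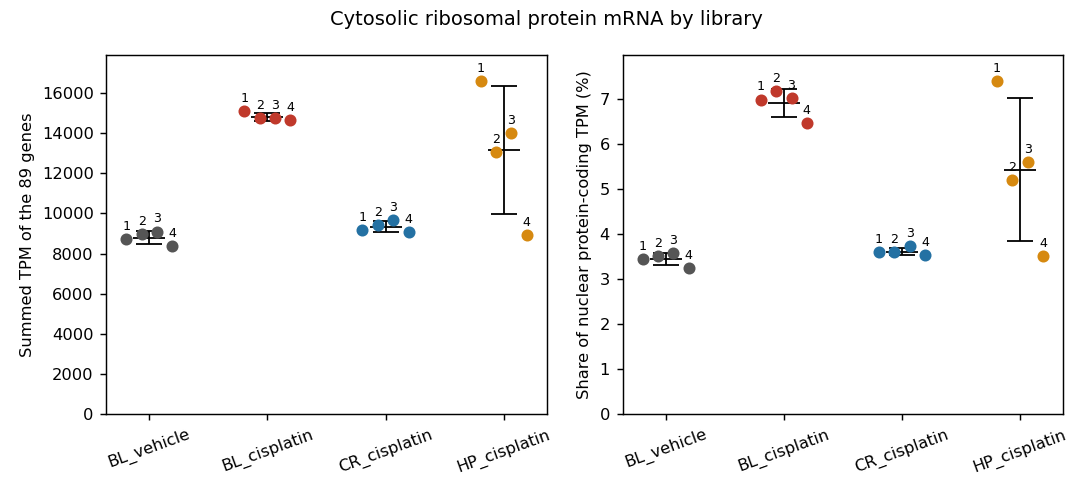
Summed TPM of the 89 cytosolic ribosomal protein genes (left) and their share of nuclear protein-coding TPM in percent (right), by group on the x axis. Points are libraries with their replicate number, bars the mean ± SD (n = 4). BL_cisplatin lies between 14644 and 15114 TPM, above all BL_vehicle and CR_cisplatin libraries, and HP_cisplatin spans 8944 to 16590 TPM.

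Between BL_cisplatin and BL_vehicle, 84 of the 89 genes were higher and none was lower (limma on log2(TPM + 1), Benjamini-Hochberg adjusted p under 0.05 over all genes tested). Of all 15014 genes, 38.0% were called higher and 28.8% lower in the same comparison. The median difference of the 89 genes was 0.73 on the log2 scale, beside 0.08 for all genes tested. All 4 BL_cisplatin libraries stood above all 4 BL_vehicle libraries for 85 of the 89 genes, as they did for 37.0% of all genes. The difference exceeded 1 on the log2 scale for 13 genes. No gene was called lower, and 85 of the 89 had an unadjusted p under 0.05 in either direction. Voom on the recovered reads called 87 higher and none lower, beside 45.8% of all genes higher and 24.4% lower. All 38 genes named Rps rose, with a median difference of 0.75, and 46 of the 51 named Rpl rose, with a median of 0.64; whether the subunits differ was not tested. Levels were tight within groups: the median coefficient of variation of the 89 genes was 4.53% in BL_vehicle and 3.04% in BL_cisplatin, against 8.69 and 11.3% for all genes tested.

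No title code holds libraries of both BL_cisplatin and BL_vehicle, so code and treatment cannot be told apart there except through CR_cisplatin. With the code as a term in the model, 30 of the 89 genes were called higher, at a median difference of 0.75, and 12.8% of all genes were called higher in that fit. The sum of 18 leukocyte markers was higher, although single markers went both ways. It was 23.2 to 36.3 TPM in BL_vehicle and 103 to 118 TPM in BL_cisplatin. Of the 8 that passed the filter, 5 were higher and 2 lower. The B cell genes were low in both groups: Cd79a was at most 0.0987 TPM in BL_vehicle and 0.861 TPM in BL_cisplatin, and Ms4a1 was at most 0.0194 TPM in BL_vehicle and listed at 0 in BL_cisplatin. The T cell genes Cd3e, Cd3g, Cd8a and Cd4 were at most 0.672 TPM in BL_vehicle and 0.0558 TPM in BL_cisplatin. Macrophage genes went in both directions. In BL_cisplatin the sum was led by Cd68, at 1.52 to 2.06 TPM in BL_vehicle and 41.3 to 68.1 TPM in BL_cisplatin, whereas in BL_vehicle it was led by Lyz2 and Csf1r. Cd14 went from 1.28 to 2.49 TPM to 21.8 to 31.2 TPM. Csf1r went from 10.4 to 14.5 TPM to 3.27 to 5.85 TPM and Adgre1 from 1.37 to 1.98 TPM to 0.379 to 1.36 TPM. The pan-leukocyte gene Ptprc was 0.916 to 1.084 TPM in BL_vehicle and 0.258 to 0.523 TPM in BL_cisplatin. Proliferation markers summed to 16.6 to 21.2 TPM in BL_vehicle and 37.5 to 40.2 TPM in BL_cisplatin, and all 6 that passed the filter were higher. The part of cell composition and proliferation in the rise was not tested.

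The largest rise was that of Rpl12, a large subunit protein at the base of the stalk. Its level was 30.2, 29.9, 30.3 and 28.8 TPM in BL_vehicle and 77.1, 78.5, 76.7 and 73.7 TPM in BL_cisplatin. The groups did not overlap, and the difference was 1.33 ± 0.22 (SE) on the log2 scale (limma, adjusted p = 0.000166). Rpl27a, a large subunit protein, followed with 48.7 to 52.4 TPM against 120 to 129 TPM, a difference of 1.30 ± 0.21 (limma, adjusted p = 0.000123). Rpsa, which sits on the small subunit and also serves as a laminin receptor, rose from 151 to 159 TPM to 330 to 345 TPM, a difference of 1.11 ± 0.14 and the smallest adjusted p of the 89 genes (limma, 4.61e-05).

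Rps27l was the third in size. It encodes a close copy of Rps27 and is a known target of p53. Its level was 69.7, 72.4, 66.9 and 78.2 TPM in BL_vehicle and 169, 151, 171 and 158 TPM in BL_cisplatin, a difference of 1.17 ± 0.22 (limma, adjusted p = 0.000395). Rps27 itself went from 99.6 ± 6.80 to 132 ± 3.41 TPM, a difference of 0.40 ± 0.12 (limma, adjusted p = 0.00888). In BL_vehicle every library held less Rps27l than Rps27, and in BL_cisplatin every library held more. Rps27l and Rps27 were each called higher in 25 of the 26 other ways of processing, with a highest adjusted p of 0.0607 and 0.177 (limma).

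The 3 stalk proteins, Rplp0, Rplp1 and Rplp2, recruit the elongation factors, and all 3 rose, with a median difference of 0.96. Rplp1 was the most abundant of the 89 genes, with 424, 424, 426 and 396 TPM in BL_vehicle and 817, 825, 790 and 829 TPM in BL_cisplatin. Rplp0 went from 247 ± 7.92 to 532 ± 8.15 TPM and Rplp2 from 48.0 ± 1.52 to 86.2 ± 3.86 TPM. Rps12, a small subunit protein and also among the 3 most abundant, went from 304 ± 10.5 to 616 ± 21.9 TPM. Each of these groups of 4 libraries stood clear of the other. Of the other small subunit proteins, Rps6, the substrate of the S6 kinases, went from 99.7 ± 0.784 to 182 ± 2.73 TPM, a difference of 0.86 ± 0.14 (limma, adjusted p = 0.000112). Rps19, whose gene is mutated in Diamond-Blackfan anaemia, went from 29.7 ± 0.848 to 64.9 ± 2.22 TPM, a difference of 1.10 ± 0.20 (limma, adjusted p = 0.000256). Rps19bp1 went from 10.9 ± 0.742 to 16.7 ± 1.30 TPM. Rpl39, a very small protein at the exit tunnel of the large subunit, went from 31.9 ± 0.869 to 66.5 ± 3.63 TPM.

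Ribosomal proteins reported to bind MDM2 or p53 mRNA numbered 15, and all 15 were higher in BL_cisplatin, with a median difference of 0.74, close to that of the whole family. Rpl5 was 56.3, 56.7, 59.2 and 55.8 TPM in BL_vehicle and 90.7, 86.9, 90.5 and 82.2 TPM in BL_cisplatin. Rpl11, its partner in the complex with 5S RNA, was 45.9, 47.4, 48.9 and 44.4 TPM and then 74.6, 73.7, 74.0 and 71.1 TPM. For both genes every BL_cisplatin library was above every BL_vehicle library, with differences of 0.61 ± 0.13 and 0.64 ± 0.13 (limma, adjusted p = 0.000779 and 0.00058). Rpl26, which binds p53 mRNA, differed by 0.64 ± 0.13 (limma, adjusted p = 0.000718). Rpl3, at the peptidyl transferase centre, was among the smaller rises, from 79.1 ± 5.60 to 105 ± 3.91 TPM. Rpl11 was called higher in all 26 other ways of processing, and Rpl5, Rpl26 and Rpl3 in 25 each. For Rpl5, Rpl26 and Rpl3 the highest adjusted p was 0.0926, 0.0858 and 0.133 (limma).

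**Figure D2:**
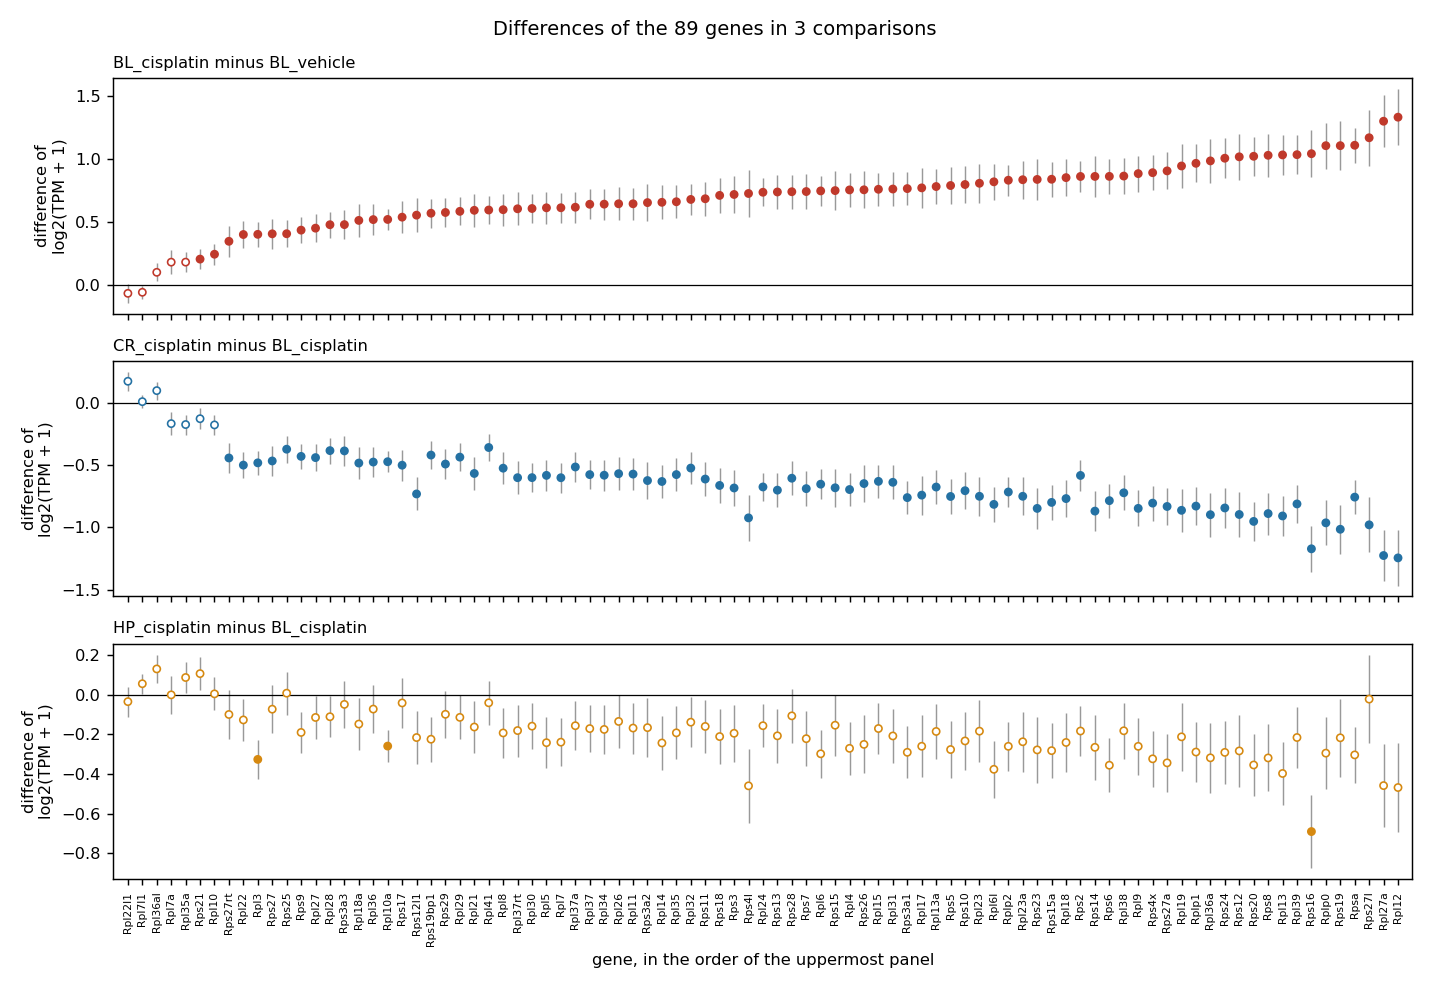
Differences of log2(TPM + 1) for the 89 genes in 3 comparisons, genes on the x axis in the order of the uppermost panel, bars ± SE. Filled points passed an adjusted p of 0.05 in limma, which holds for 84 genes in the uppermost panel, 82 in the middle panel and 3 in the lowest.

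The 5 genes that were not called were Rpl22l1, Rpl7l1, Rpl36al, Rpl7a and Rpl35a. The first 3 are paralogs of core proteins, at 6.57, 22.9 and 29.8 TPM on average in BL_vehicle. Rpl22l1, a copy of Rpl22, was 7.0, 6.3, 6.4 and 6.6 TPM in BL_vehicle and 6.2, 6.5, 6.6 and 5.6 TPM in BL_cisplatin. Rpl7l1, a copy of Rpl7, was 22.3, 23.5, 22.5 and 23.3 TPM and then 21.6, 20.8, 22.3 and 22.9 TPM. Rpl36al, a copy of Rpl36a, was 28.4, 29.9, 29.6 and 31.2 TPM and then 32.6, 30.5, 32.5 and 32.1 TPM. In each of these 3 genes the groups overlapped. Their differences were -0.07 ± 0.08, -0.06 ± 0.05 and 0.10 ± 0.07 (limma, adjusted p = 0.429, 0.308 and 0.239). Over the 26 other ways of processing, the Rpl22l1 difference lay between -0.23 and 0.16 and was never called. That of Rpl7l1 lay between -0.17 and 0.18, and it was called lower at equal medians and higher when only nuclear protein-coding genes were scaled. Rpl36al lay between -0.02 and 0.35 and was called higher in 3.

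Their core partners rose. Rpl22 went from 28.2 ± 1.34 to 37.5 ± 0.396 TPM, Rpl7 from 85.7 ± 6.10 to 131 ± 3.70 TPM and Rpl36a from 30.2 to 33.1 TPM to 60.6 to 65.7 TPM. The log2 ratio of copy to core within a library, which does not depend on the scaling of the library, fell by 0.49 for Rpl22l1 to Rpl22, by 0.68 for Rpl7l1 to Rpl7 and by 0.90 for Rpl36al to Rpl36a, and it rose by 0.77 for Rps27l to Rps27. In these 4 pairs the BL_cisplatin and BL_vehicle libraries did not overlap. In the other pair compared, Rps4l to Rps4x, they did, with a difference of -0.09 (2-sided exact permutation test, p = 0.714). The 5 pairs were chosen after their values were seen, each in 4 comparisons. With 4 libraries against 4, a 2-sided exact permutation test cannot go below p = 0.0286. After Benjamini-Hochberg adjustment over the 20 tests, the smallest permutation p was 0.0571, so none passed. Ratios of Rpl36al to Rpl36a were near 1 in BL_vehicle, with log2 ratios from -0.16 to 0.05, and from -1.03 to -0.96 in BL_cisplatin. Near-identical copies and the 259 dropped pseudogenes can share reads with these genes, so the split between copies is uncertain. When each gene's TPM was summed with that of its pseudogenes, the count of genes called higher was again 84. That count says nothing on the split within a pair, and the ratios of copy to core were not recomputed with pseudogenes added. Over the 26 other ways of processing, the Rpl36a difference between BL_cisplatin and BL_vehicle lay between 0.57 and 1.25. That of Rpl22 lay between 0.29 and 0.66 and that of Rpl7 between 0.50 and 0.87. Each was called higher in 25.

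Rpl7a and Rpl35a, both large subunit proteins, were close to the threshold. Rpl7a, which holds several snoRNAs in its introns, was 160, 159, 169 and 154 TPM in BL_vehicle and 189, 179, 177 and 182 TPM in BL_cisplatin. Rpl35a was 30.2, 30.7, 31.3 and 29.4 TPM and then 36.1, 34.3, 34.1 and 33.6 TPM. All BL_cisplatin libraries were above all BL_vehicle libraries for both genes, although their differences of 0.18 each were not called (limma, adjusted p = 0.110 and 0.0616). Over the 26 other ways of processing, Rpl7a was called in 5 and Rpl35a in 6. Rps21 was just on the other side: its difference was 0.20 (limma, adjusted p = 0.0411), its libraries overlapped between the groups, and it was not called in 12 of the 26.

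**Figure D3:**
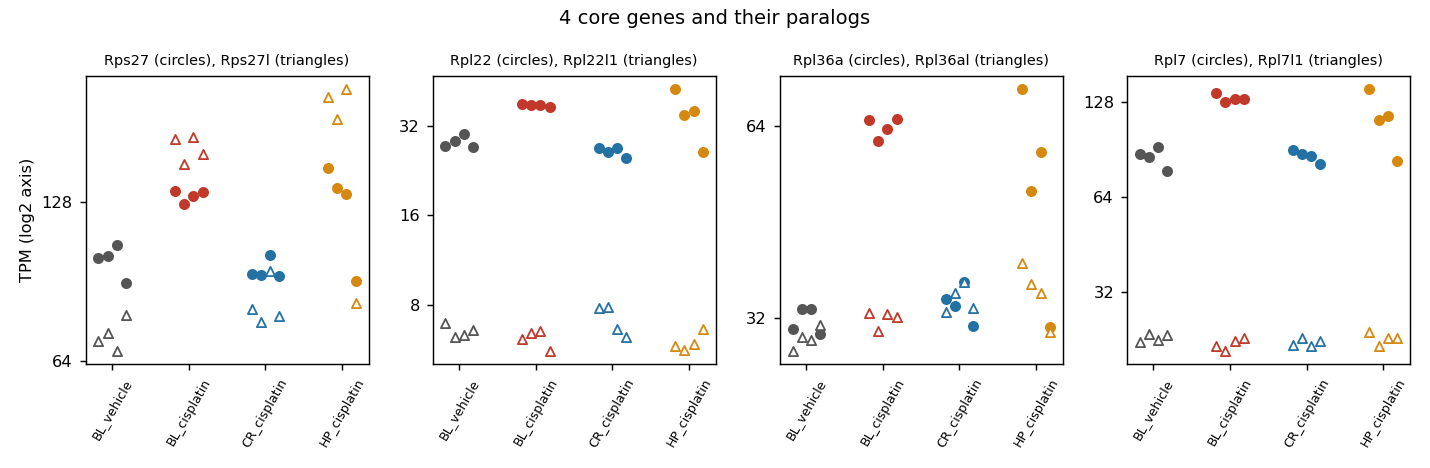
TPM on a log2 axis for 4 core genes (circles) and their paralogs (triangles) in each library, by group on the x axis. Rps27l lies below Rps27 in every BL_vehicle library and above it in every BL_cisplatin library, while Rpl22l1 spans 5.64 to 7.92 TPM, Rpl7l1 20.8 to 24.0 TPM and Rpl36al 28.4 to 39.0 TPM over all libraries.

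Promoter sequence was taken from RefSeq (GRCm38.p6), where 64 of the 89 genes had an entry. The windows of the 4 genes with the largest and the 4 with the smallest difference are shown, with Rps6 as a typical member, because the TOP tract lies at the transcription start that these windows cover. Each runs from 60 bases before to 30 bases after the annotated start, 5′ to 3′ on the gene's strand. Where a gene had several entries, the one with the longest pyrimidine run is shown. Capitals mark the longest run of a C followed by at least 5 more C or T. A marked run need not be a TOP tract: those of Rpl12, Rps27l, Rpsa, Rpl36al and Rpl7l1 lie wholly before the annotated start.
Rpl12 (chr2:32961652-32961741, + strand): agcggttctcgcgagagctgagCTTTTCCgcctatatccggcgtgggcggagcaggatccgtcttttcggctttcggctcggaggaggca
Rpl27a (chr7:109519135-109519224, + strand): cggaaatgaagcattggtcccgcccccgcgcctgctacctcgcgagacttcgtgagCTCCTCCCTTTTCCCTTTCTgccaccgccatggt
Rps27l (chr9:66946026-66946115, + strand): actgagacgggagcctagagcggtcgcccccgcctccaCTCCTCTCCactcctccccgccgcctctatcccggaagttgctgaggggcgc
Rpsa (chr9:120127706-120127795, + strand): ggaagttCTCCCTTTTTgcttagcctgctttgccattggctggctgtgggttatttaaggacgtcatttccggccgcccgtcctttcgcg
Rps6 (chr4:86857338-86857427, - strand): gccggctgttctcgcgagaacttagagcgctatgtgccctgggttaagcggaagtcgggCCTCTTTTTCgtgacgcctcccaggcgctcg
Rpl7a (chr2:26910747-26910836, + strand): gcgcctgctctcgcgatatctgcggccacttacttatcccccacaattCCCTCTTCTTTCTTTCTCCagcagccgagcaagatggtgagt
Rpl36al (chr12:69184038-69184127, - strand): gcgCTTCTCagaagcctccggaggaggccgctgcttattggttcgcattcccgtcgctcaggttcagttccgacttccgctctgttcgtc
Rpl7l1 (chr17:46782627-46782716, - strand): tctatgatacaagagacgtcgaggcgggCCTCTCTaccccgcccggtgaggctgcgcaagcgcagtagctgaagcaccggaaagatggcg
Rpl22l1 (chr3:28805448-28805537, + strand): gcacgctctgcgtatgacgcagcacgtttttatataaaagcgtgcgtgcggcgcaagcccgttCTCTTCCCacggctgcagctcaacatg

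A run of at least 6 pyrimidines starting with C, anywhere in this window, was present for 53 of the 64 genes (82.8%). Among the 27025 genes with a promoter entry the share was 58.2%. A gene counted here and below if any of its entries held the run or motif. A run of at least 10 was present for 30 (46.9%), compared with 15.4%. The long runs of Rpl27a and Rpl7a cover the annotated start, yet these genes lie near opposite ends of the order of differences. Genes with a run of at least 10 had a median difference between BL_cisplatin and BL_vehicle of 0.73, and those without one of 0.74. The motif CCGGAAGT, bound by GABP and other ETS factors, was searched on both strands from 250 bases before to 50 after the start. It was found in 12 of the 64 genes (18.8%), compared with 4.31% of all genes, and its CC, or CTTCC on the other strand, can overlap a pyrimidine run. Genes with it had a median difference of 0.68 and those without it 0.75. AAGATGGC, a YY1 motif, was found in 6 genes (9.38%), compared with 3.19% of all genes, and those 6 had a median difference of 0.40, with Rpl7l1 among them. TATAAA was found in 7 (10.9%), compared with 15.7%. A match describes these letters in the window and is not a measured binding site.

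The 89 genes lie on 19 chromosomes, with at most 15 on 1 of them, chromosome 7. Their mean levels in BL_vehicle spanned a 63.6-fold range. Neither that level nor exon length tracked the size of the rise: across the 89 genes, Spearman's rho with the difference was 0.12 for level and 0.09 for length. These are descriptions across genes that share libraries. Level fell with exon length (rho = -0.42), which is partly built into TPM. The exon lengths behind the TPM ran from 370 to 6262 bases, so Rps15a, at 6262 bases and 13.5 TPM in BL_vehicle, is listed low although it had 4441 reads on average per library. Orders of level between these genes therefore depend on the gene models used. The 3 highest by mean TPM were Rplp1, Rps12 and Rplp0 and the 3 lowest were Rpl22l1, Rps12l1 and Rps4l. Rps12l1 went from 6.93 ± 0.753 to 10.6 ± 1.15 TPM and Rps4l from 7.91 ± 2.21 to 13.4 ± 1.18 TPM.

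After calorie restriction the ribosomal protein mRNAs stood near the vehicle level despite cisplatin. Between CR_cisplatin and BL_cisplatin, 82 of the 89 genes were lower and none higher (limma, adjusted p under 0.05), beside 37.4% of all genes lower and 29.8% higher. The median difference was -0.65, beside -0.08 for all genes, and 84 of the 89 had an unadjusted p under 0.05. Voom called 86 lower and none higher, beside 45.1% of all genes lower and 25.1% higher. Rpl12 was 31.9, 33.0, 32.7 and 29.3 TPM in CR_cisplatin, below every BL_cisplatin library, a difference of -1.24 ± 0.22 (limma, adjusted p = 0.00027). Rpl27a differed by -1.23 ± 0.21 (limma, adjusted p = 0.000188) and Rps19 by -1.01 ± 0.20 (limma, adjusted p = 0.000476). Rps16, a small subunit protein near the decoding site, was 37.2, 44.6, 53.3 and 49.6 TPM in CR_cisplatin and 108, 109, 102 and 98.9 TPM in BL_cisplatin, a difference of -1.17 ± 0.19 (limma, adjusted p = 0.000124). Of the genes at the other end, Rpl22l1 (0.18), Rpl36al (0.10), Rpl7l1 (0.01) and Rps21 (-0.13) were not called, nor were Rpl7a, Rpl10 and Rpl35a. Over the 26 other ways of processing, Rpl7l1 was called in 2, Rpl22l1 in 5, Rpl36al in 1, Rps21 in 3, Rpl7a in 5 and Rpl35a in 6.

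Library 1 of CR_cisplatin carries the same title code as the BL_cisplatin libraries, and within that code its summed level was 9155 TPM against 14644 to 15114 TPM. With the code as a term, 66 genes were lower, beside 23.6% of all genes. Proximal tubule markers summed to 2942 to 3527 TPM in CR_cisplatin and leukocyte markers to 20.8 to 36.6 TPM, both overlapping the vehicle range; their part in the difference was not tested. BL_cisplatin is the control in this comparison and the treated group in the previous one, so the shared libraries tie their values together.

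Set against BL_vehicle, CR_cisplatin showed no called gene among the 89 in either direction (limma), and 4 genes had an unadjusted p under 0.05; voom called none. Of all 15014 genes, 0.0133% were higher and 0.04% lower. The median difference was 0.07, beside 0.01 for all genes, and 79 of the 89 differences were positive. The largest was that of Rpsa, at 187, 208, 201 and 205 TPM in CR_cisplatin against 151 to 159 TPM in BL_vehicle. Its groups did not overlap, and the difference was 0.35 ± 0.14 (limma, adjusted p = 1). All CR_cisplatin libraries stood above all BL_vehicle libraries for 17 of the 89 genes and below them for 1. Among all 15014 genes this held for 965 above and 410 below. A fit of the 2 groups alone, which does not borrow the wide spread of HP_cisplatin, called 3 genes higher, beside 0.326% of all genes.

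**Figure D4:**
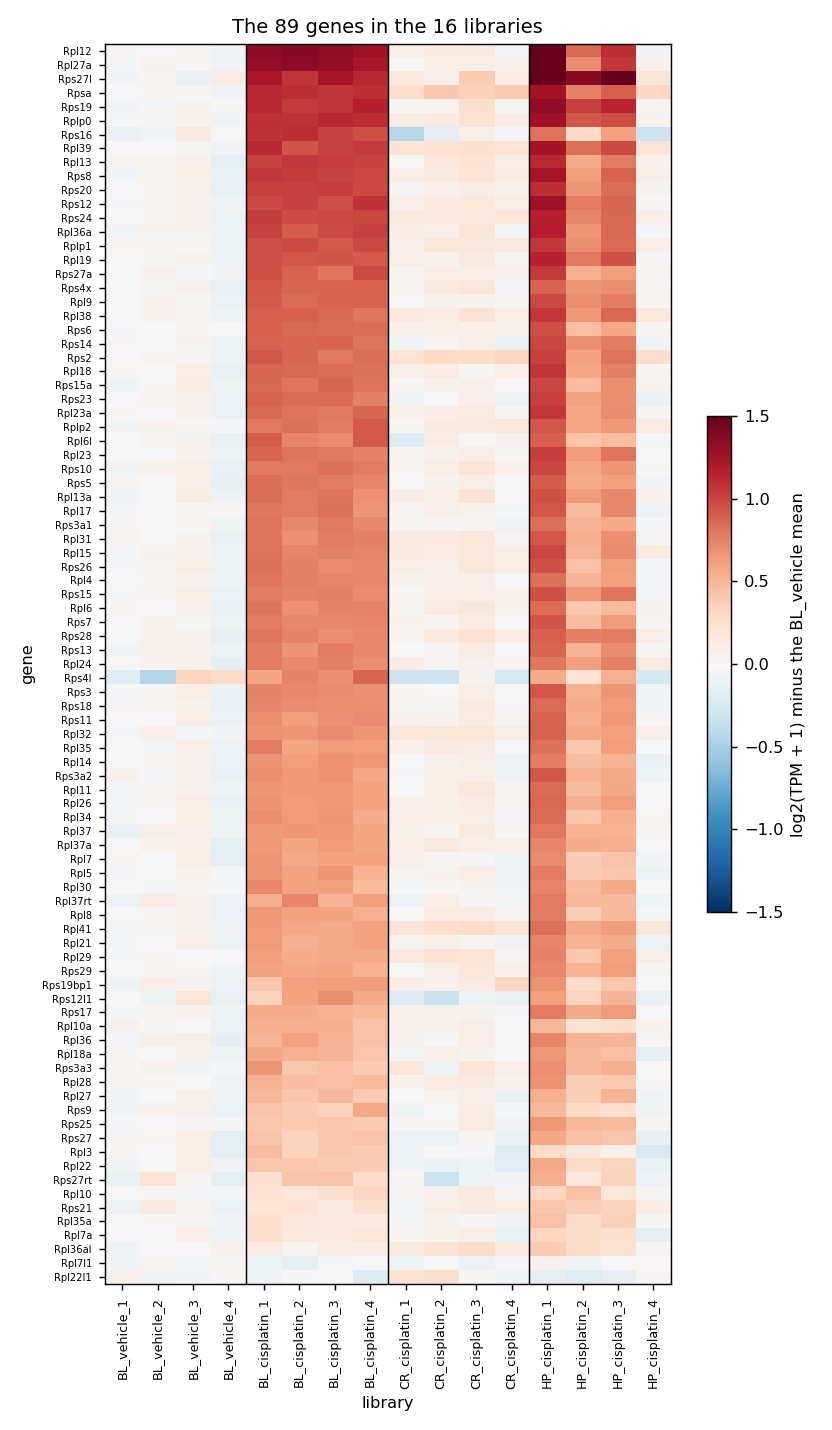
Difference of log2(TPM + 1) from the BL_vehicle mean for the 89 genes (rows, ordered by the BL_cisplatin difference) in the 16 libraries (columns). Colours are cut at ± 1.5. The BL_cisplatin columns and HP_cisplatin 1 are high in nearly all rows, HP_cisplatin 2 and 3 lie between, and HP_cisplatin 4 resembles CR_cisplatin and BL_vehicle.

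Hypoxic preconditioning gave no single level. The median difference of the 89 genes from the BL_vehicle mean was 0.86, 0.52, 0.63 and 0.02 in libraries 1 to 4 of HP_cisplatin, compared with 0.69 to 0.78 in the BL_cisplatin libraries. In library 1, 79 of the 89 genes were above the highest BL_cisplatin library. In library 4, 19 were above the highest BL_vehicle library. Neither count was made for all genes, whose median difference from the BL_vehicle mean was 0.06 in library 1 and -0.02 in library 4. The order of these libraries by summed ribosomal protein TPM was the same as their order by injury gene sum, 1526, 891, 253 and 17.1 TPM, and the reverse of their order by proximal tubule markers, 248, 759, 1892 and 2950 TPM. Leukocyte markers summed to 85.0, 66.6, 58.4 and 32.3 TPM in that order, but single markers went both ways. Cd68 fell, at 47.5, 31.6, 13.2 and 1.86 TPM, and so did Cd14. The pan-leukocyte gene Ptprc rose in the same order, at 0.2991, 0.4009, 0.5272 and 0.6901 TPM, and so did Csf1r. Lyz2 followed neither order. The sum therefore does not show that leukocyte content followed the ribosomal protein level. These are 4 libraries described, not a test, and the part of any of these cell types was not tested. The median coefficient of variation of the 89 genes was 23.7% in HP_cisplatin, beside 20.4% for all genes tested.

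Between HP_cisplatin and BL_cisplatin, 3 of the 89 genes were lower and none higher (limma), beside 13.1% of all genes lower and 16.4% higher. The median difference was -0.21, beside -0.02 for all genes, and 14 genes had an unadjusted p under 0.05. Voom called 5 lower, beside 17.1% of all genes. Rps16 was 89.05, 61.4, 77.7 and 40.2 TPM in HP_cisplatin, below all BL_cisplatin libraries, a difference of -0.69 ± 0.19 (limma, adjusted p = 0.0166). Without library 4 it was -0.47 (limma, adjusted p = 0.0248), and with only these groups fitted it was not called (limma, adjusted p = 0.123). Rpl3 was 96.8, 87.9, 84.0 and 66.9 TPM, also below all BL_cisplatin libraries, a difference of -0.33 ± 0.10 (limma, adjusted p = 0.0267; 0.051 without library 4). Rpl10a, the third, was 78.8, 64.6, 65.9 and 57.7 TPM against 75.1 to 81.4 TPM, with 1 overlapping library, a difference of -0.26 ± 0.08 (limma, adjusted p = 0.0317). Without library 4, Rps16 was the only one of the 89 genes still called lower. All HP_cisplatin libraries were below all BL_cisplatin libraries for 3 of the 89 genes, as for 9.07% of all genes: Rps16, Rpl3 and Rps4l.

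The calls turned on single libraries. Leaving out library 1 or library 3 of BL_cisplatin left 1 gene lower. Without library 1 of HP_cisplatin 55 genes were lower than in BL_cisplatin, beside 23.3% of all genes. Without library 4, 1 was lower and 3 were higher, at a median difference of -0.04, beside 6.99% of all genes lower and 12.2% higher. In the fit without library 4 Rps27l was higher by 0.29 (limma, adjusted p = 0.0341), where it had differed by -0.02 with all libraries. Its levels were 203, 184, 210 and 82.3 TPM in libraries 1 to 4 of HP_cisplatin, so 3 of them stood above all BL_cisplatin libraries. Rpl35a and Rpl36al were also higher in that fit, by 0.18 and 0.20 (limma, adjusted p = 0.0332 and 0.0357). With all libraries, the genes at the upper end were Rpl36al (0.13), Rps21 (0.11), Rpl35a (0.09) and Rpl7l1 (0.06), and those at the lower end after Rps16 were Rpl12 (-0.47), Rps4l (-0.46) and Rpl27a (-0.46), none of them called. Without library 4 these 3 differences were -0.16, -0.29 and -0.20, none called, and without library 1 they were -0.69, -0.56 and -0.69, all called. Fitted on only these groups or with the title code as a term, no gene was called.

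Compared with BL_vehicle, within the same title code, 78 of the 89 genes were higher in HP_cisplatin and none lower (limma). Of all genes, 19.2% were higher and 10.1% lower. The median difference was 0.50, beside 0.06 for all genes. Voom called 81 higher, beside 25% of all genes. The limma count was 86 without library 4, 52 without library 1 and 14 without library 3, beside 33.5, 8.62 and 3.06% of all genes. It was 50 without library 4 of BL_vehicle, beside 9.96%. Fitted on these groups alone it was 0, with 70 genes at an unadjusted p under 0.05. Between CR_cisplatin and HP_cisplatin, 69 genes were lower and none higher (limma), beside 15.0% of all genes lower and 9.24% higher. The median was -0.45, beside -0.05 for all genes. Voom called 79 lower, beside 19.5% of all genes. The limma count was 86 without library 4 of HP_cisplatin, beside 32.5% of all genes, and 37 without library 2, beside 11.9%. It was 0 without library 1 or library 3 and without any one of the CR_cisplatin libraries, and then no gene of all those tested was called. In these fits 73 to 84 of the 89 genes still had an unadjusted p under 0.05 where none was called.

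Other genes of ribosome production were described from lists, whose counts stand beside 38.0% of all genes called higher and 28.8% lower in BL_cisplatin against BL_vehicle. With the title code as a term these shares were 12.8 and 9.88%. Of 45 measured factors of ribosome assembly, 36 were higher in BL_cisplatin than in BL_vehicle and none lower, with a median difference of 0.50. With the code as a term 20 were higher. In CR_cisplatin against BL_cisplatin 34 were lower and 1 higher, beside 37.4% of all genes lower and 29.8% higher. Noc4l, which helps assemble the small subunit, went from 3.47 to 6.04 TPM (limma, adjusted p = 5.15e-05), Nop14, its partner, from 5.28 to 10.6 TPM and Noc2l, of the large subunit pathway, from 13.4 to 23.0 TPM. The abundant nucleolar proteins nucleolin (Ncl), nucleophosmin (Npm1) and fibrillarin (Fbl) rose by 0.70, 0.64 and 0.69. Of 10 genes of RNA polymerase I and its factors, which make the ribosomal RNA, 5 rose and 1 fell. After the composition rescaling the counts were 9 and 1, beside 46.2 and 21.1% of all genes. Over nuclear protein-coding genes they were also 9 and 1, beside 54.4 and 21.2%. Under the filter of 5 TPM they were 2 and 1 of 6, beside 39.6 and 34.6%, and with the code as a term 3 and 0. Rrn3, the initiation factor, rose by 0.53 (limma, adjusted p = 0.000468) and Polr1d by 0.39, whereas Ubtf, the factor that opens ribosomal DNA, fell by 0.39 (limma, adjusted p = 0.000725).

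Of 21 other mRNAs known to carry a TOP tract, mostly translation factors, 12 rose and 1 fell, with a median difference of 0.33; with the code as a term 8 rose. Pabpc1, the poly(A)-binding protein, went from 20.3 to 77.6 TPM (limma, adjusted p = 6.86e-05), Hnrnpa1, a splicing factor, from 19.9 to 41.5 TPM and Tpt1, a growth-related protein, from 150 to 285 TPM. Elongation factor Eef1a1 rose by 0.43 (limma, adjusted p = 0.0113), and Eef2 differed by -0.14 (limma, adjusted p = 0.0998). Of 7 noncoding host genes of snoRNAs, 5 rose and none fell, with a median of 0.65, and 3 rose with the code as a term. The 3 with the smallest adjusted p were Snhg6, Snhg5 and Snhg3, with differences of 1.29, 1.18 and 1.24. Inside the 89 genes lie 58 annotated snoRNA genes, small RNAs that guide modification of ribosomal RNA. Of these, 37 in 21 hosts passed the filter, and 23 were higher and none lower in BL_cisplatin, with a median of 0.67. With the code as a term 4 of the 37 were higher. Unspliced host RNA can add to their reads.

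Of 14 genes of growth control, 3 rose and 3 fell, smaller shares than those of all genes, with a median of 0.09 beside 0.08. Myc, a transcription factor that drives ribosome production, went from 2.11 to 15.5 TPM (limma, adjusted p = 0.000148) and was 2.10 TPM in CR_cisplatin and 8.42 TPM in HP_cisplatin. Eif4ebp1, the repressor of cap-dependent translation that mTOR inactivates, went from 7.59 to 59.7 TPM (limma, adjusted p = 5.15e-05). Mtor fell by 0.64 (limma, adjusted p = 0.000536), and Larp1, which binds TOP mRNAs, differed by 0.13 (limma, adjusted p = 0.092) and was called higher under 3 other scalings. At equal medians of the libraries 3 of the 14 rose and 6 fell, beside 31.7% of all genes higher and 36.9% lower. Over nuclear protein-coding genes 9 rose and 2 fell, beside 54.4 and 21.2%. With the title code as a term, Eef1a1, Npm1, Polr1d, Ubtf and Mtor kept their sign and were not called.

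The ribosome of the mitochondrion is built from a separate set of proteins. Of 80 mitochondrial ribosomal protein genes, 48 were lower and 11 higher in BL_cisplatin than in BL_vehicle, with a median difference of -0.23, beside the 0.73 of the cytosolic set and 0.08 for all genes. In CR_cisplatin against BL_cisplatin 55 were higher and 6 lower, with a median of 0.31, beside 29.8% of all genes higher and 37.4% lower. With the code as a term 18 were lower and 3 higher than in BL_vehicle. Their direction depended on the scaling: the median against BL_vehicle was -0.10 after a rescaling for composition and 0.00 over nuclear protein-coding genes. In the latter 20 of 76 were higher and 28 lower, beside 54.4 and 21.2% of all genes. Under those scalings the median of all genes was 0.25 and 0.32, so the mitochondrial set lay below it each time. The difference between the sets was described, not tested. Of the pseudogenes dropped by the rule, 85 passed the filter: 70 were higher in BL_cisplatin and none lower, with a median of 0.63, and 21 were higher with the code as a term. Reads shared with the parent genes cannot be told apart from their own.

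**Figure D5:**
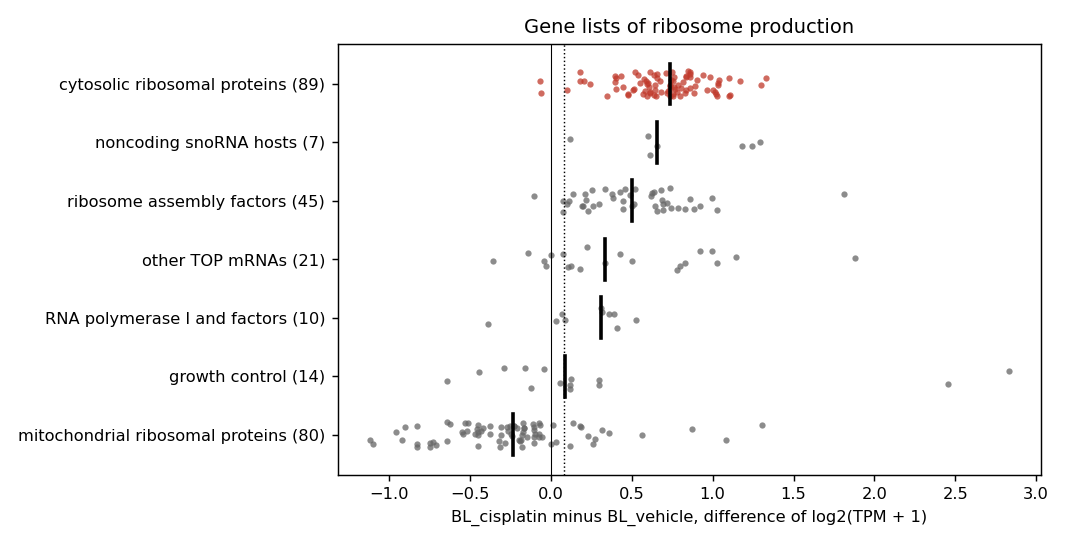
Difference of log2(TPM + 1) between BL_cisplatin and BL_vehicle for each measured gene of 7 lists (number of genes in brackets). Points are genes, spread vertically for view, thick bars the list medians, from 0.73 for cytosolic to -0.23 for mitochondrial ribosomal proteins, and the dotted line the median of all genes, 0.08.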

How the data were processed

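Total RNA of 16 kidney libraries, depleted of ribosomal RNA, was sequenced. The authors deposited TPM values, a unit read from column sums of 1000000 and from whole-read steps. Alignment and counting tools in the submitters' processing notes are STAR 2.5, Subread 1.5 and featureCounts, and the builds are GRCm38 and mm10. Their settings are not given in the sources used here, and neither is the use of strand, so reads of overlapping genes may be mixed.

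The 89 genes and the gene lists were chosen with earlier results of these data known. Groups were taken from the labels of injection and preconditioning. The 15014 genes that reached 1 TPM in 4 or more libraries were tested on log2(TPM + 1) with limma 3.58.1 (R 4.3.3, statmod 1.5.0). One model of the 4 groups covered the 16 libraries, without other terms and with a trended, robust prior variance. A fold change is on that scale, which understates the change of low genes. Adjusted p-values are Benjamini-Hochberg, 2-sided, over all genes tested in a comparison, with a threshold of 0.05. The fit was also run on simulated data in which few genes changed, in a single group, and all groups had the same spread. These data differ in both respects, so that run does not show how the fit performs here.

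Whole reads were recovered from the value of 1 read in each library: 24571 of 32198 genes (76.3%) came out whole within 0.0001 reads with the annotated exon length, and 7627 with the smallest length found by search, which gives their smallest possible reads. Of the 89 genes, 51 used the annotated and 38 a found length; reads per gene and library ran from 75 to 39215, with a median of 5630. Gene types and positions were taken from GENCODE M21, in which 45229 gene IDs were found, and promoters from RefSeq.

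Genes named in the text were the 4 highest and 4 lowest differences in each of the 3 comparisons with BL_cisplatin, the 3 highest and 3 lowest mean TPM, a fixed set (Rpsa, the stalk, Rpl5, Rpl11, Rpl26, Rps6, Rpl3, Rpl39, Rps19, Rps19bp1 and core genes with their paralogs) and up to 3 genes per list with the smallest adjusted p, besides Eef1a1, Eef2, Ncl, Npm1, Fbl, Myc and Larp1. Rpl10, Rpl10a, Rps15a and the leukocyte genes were named after their values were seen. Alternatives were a pseudocount of 0.1, no filter, a filter of 5 TPM, only the groups compared, the title code as a term, a composition rescaling that left out the 10 most abundant genes and those of mitochondria and red blood cells, equal medians, pseudogene TPM added, voom on recovered reads and each library left out. A rescaling over nuclear protein-coding genes was chosen after seeing the data.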

Additional observations from a re-analysis of the deposited data

Results flagged for a closer look

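In 120 groups of 4 libraries tested for a value apart from the rest, 4 had a library whose gap to the nearest other passed Dixon's critical value; chance flags about 1 in 20 groups. Rplp1 in BL_vehicle library 4 was 396 TPM, below the 424 to 426 TPM of the others. Rps19 in CR_cisplatin library 3 was 35.7 TPM, above the 30.2 to 30.6 TPM of the others, and Rps27 in that same library was 102 TPM, above 92.6 to 93.5 TPM. Rps19bp1 in BL_cisplatin library 1 was 14.8 TPM, below the 17.3 to 17.4 TPM of the others.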

How the results depend on the processing

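No paired analysis was possible because the labels and columns carry no replicate numbers. Of 87 differences named for single genes, 81 were recomputed under 26 alternatives and the 6 of Rps12l1 and Rps4l under 25, since neither is typed as protein-coding. Of these 2256 values, 2149 kept their side of the threshold, 70 gained a call, 33 lost one and 4 reversed; 30 of the 2149 changed sign without a call. Rpl7l1 in BL_cisplatin against BL_vehicle was 0.18 over nuclear protein-coding genes, and in CR_cisplatin against BL_cisplatin it was -0.14 after the composition rescaling and -0.26 over nuclear protein-coding genes. Rps27l in HP_cisplatin against BL_cisplatin was 0.29 without HP_cisplatin replicate 4, in a range of -0.15 to 0.29 over single libraries left out. The cause was not tested.

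Counts over the 89 genes moved as follows. For BL_cisplatin against BL_vehicle, 30 were higher with the title code as a term, and 1 was lower (0 in the fit reported) at equal medians. For CR_cisplatin against BL_cisplatin, 1 was higher under the filter of 5 TPM and 2 at equal medians, and leaving out single libraries gave 0 to 1. For HP_cisplatin against BL_cisplatin, 0 were lower with only the groups compared or with the code, 18 after the composition rescaling, 5 with voom and 36 of 83 over nuclear protein-coding genes, beside 24.1, 17.1 and 37.4% of all genes, so these counts were near or below the background; leaving out single libraries gave 1 to 55 lower and 0 to 3 higher. For CR_cisplatin against HP_cisplatin, 0 were lower with no filter, with only the groups compared or with the code, and 1 was higher under the filter of 5 TPM or at equal medians; leaving out single libraries gave 0 to 86 lower and 0 to 1 higher. For CR_cisplatin against BL_vehicle, 3 were higher with only the groups compared, beside 0.326% of all genes. For HP_cisplatin against BL_vehicle, 0 were higher with only the groups compared, and leaving out single libraries gave 14 to 86. With only the groups compared the fit has fewer libraries and does not pool the spread.

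The median of all genes in BL_cisplatin against BL_vehicle shifted from 0.08 to 0.25 after the composition rescaling, 0.23 with voom, 0.32 over nuclear protein-coding genes and -0.03 at equal medians. The median of the 89 genes relative to it was 0.65, 0.64, 0.64, 0.68 and 0.65 in that order, the reported fit first. Of all calls in that comparison, 56.9% were higher in the fit reported, 68.7% after the composition rescaling, 71.9% over nuclear protein-coding genes and 46.2% at equal medians. The same share in CR_cisplatin against BL_cisplatin was 44.4% as reported, 31.997% after the composition rescaling and 27.2% over nuclear protein-coding genes; in HP_cisplatin against BL_cisplatin it was 55.5%, 30.04% and 23.1%. At equal medians it was 59.0% against 38.1% as reported for CR_cisplatin against HP_cisplatin, and 42.1% against 65.7% for HP_cisplatin against BL_vehicle. Reads per gene and library ran down to 75, in Rps12l1, which limits the precision of its values.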
